A study of Arabidopsis thaliana with 16 samples.

Results

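The chloroplast genome of Arabidopsis thaliana encodes part of the machinery of photosynthesis and of the organelle's own gene expression. All genes with a locus code of that genome were taken, 88 of the 27416 genes in the count table, and 86 of them had enough counts to be tested. They comprise 15 genes of photosystem II, 7 of photosystem I and its assembly, 6 of the cytochrome b6f complex, 6 of the ATP synthase and 1 of Rubisco. A further 12 genes encode subunits of the NDH complex, 15 the small and 11 the large ribosomal subunit, 4 the RNA polymerase and 11 other products. Membership rested on the code alone, not on any measured value. The genes not tested were rpl23.1, with 85 counts over 14 libraries, and ycf15.2, with 41.

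Seedlings were grown on agar and exposed to gaseous ethanol either for 1 d, starting at 13 d of age (EtOH_1d), or for 3 d, starting at 11 d of age (EtOH_3d). Controls of each duration carry the label moc, which is not spelled out (moc_1d and moc_3d). The labels give no genotype, and although the series title names freezing stress, they give no cold step. Each group has 4 libraries by label, from whole plants, and nothing says whether they came from separate plates. P-values therefore cover only how far these samples differ, and that may be technical variation. The columns of moc_1d replicate 1 and moc_3d replicate 3 were identical and were left out of both groups, leaving 3 control and 4 ethanol libraries per duration. Library totals were 3695511 to 15943927 counts, of which 58466 to 362892 fell on chloroplast genes. A detection limit of 3 counts, which covers counting error only, corresponds to 0.188 to 0.812 CPM (counts scaled to the same total in every library).

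Chloroplast genes are transcribed by a bacterial-type polymerase, whose core is encoded in the chloroplast and whose sigma factors are encoded in the nucleus, and by a phage-type polymerase encoded wholly in the nucleus. Most lie in operons and are processed from long shared transcripts. Their messages carry no stable poly(A) tail, and short A-rich tails added to them mark them for decay. Lasy-Seq starts cDNA synthesis from an oligo-dT primer, which anneals to a poly(A) tail or to another run of A in the RNA. Counts of chloroplast genes in such libraries are thus not a direct measure of how much of each message was present.

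The windows below show the longest run of A on the sense strand of 8 chloroplast genes, searched from 300 bases before to 200 bases after the gene's end. They were chosen, with the counts known, to show genes with long runs (rpoA, ndhC, psbM and rps4), the gene with the most counts (atpE), a gene tested below (ndhJ) and photosystem genes with short runs (psaA and psbD). Each window has 61 bases, written 5′ to 3′, with the longest run of A in capitals.
rpoA: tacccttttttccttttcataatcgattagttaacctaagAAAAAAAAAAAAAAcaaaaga
ndhC: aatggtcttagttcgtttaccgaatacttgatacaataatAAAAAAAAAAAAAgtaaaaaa
psbM: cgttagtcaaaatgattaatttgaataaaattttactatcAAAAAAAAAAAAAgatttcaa
rps4: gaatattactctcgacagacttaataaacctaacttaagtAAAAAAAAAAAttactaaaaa
atpE: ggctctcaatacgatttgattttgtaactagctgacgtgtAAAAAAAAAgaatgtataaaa
ndhJ: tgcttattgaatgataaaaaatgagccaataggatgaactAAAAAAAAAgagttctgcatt
psaA: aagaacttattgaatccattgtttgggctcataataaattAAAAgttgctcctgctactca
psbD: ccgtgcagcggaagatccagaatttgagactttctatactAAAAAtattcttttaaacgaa
The rpoA window lies at Pltd:78088-78148 of the chloroplast record (TAIR10.1, minus strand), and its run of 14 A starts 208 bases before the end of the gene, inside the coding sequence. The runs of 13 A in ndhC (Pltd:49951-50011, minus strand) and psbM (Pltd:28665-28725, minus strand) start 29 and 21 bases after the gene's end. The run of 11 A in rps4 (Pltd:45186-45246, minus strand) starts 16 bases after the end, and those of 9 A in atpE (Pltd:52223-52283, minus strand) and ndhJ (Pltd:48626-48686, minus strand) start 21 and 30 bases after it. In psaA (Pltd:39720-39780, minus strand) the longest run had 4 A, and in psbD (Pltd:33622-33682, plus strand) 5 A.

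Counts were concentrated in a few genes. The gene with the most was atpE, the epsilon subunit of the ATP synthase, with 379720 counts over the 14 libraries, or 20% of all chloroplast counts. Next came ycf1.2, which encodes a protein of the import machinery of the inner envelope, and rpl16, a protein of the large ribosomal subunit, with 13.3% each. The large-subunit gene rpl32 held 9.58%, ndhC (an NDH subunit) 7%, psbM (a small photosystem II subunit) 5.53% and rpoA (the alpha subunit of the RNA polymerase) 4.64%. These 7 genes made up 73.4% of the counts. Genes of abundant photosynthetic proteins were far down the list. The D1 protein of photosystem II, psbA, held 1.4%, and the large subunit of Rubisco, rbcL, held 0.241%.

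Per kilobase of coding length, ycf1.2 was in place 12 and the other 6 genes stayed among the highest 7. The highest mean levels were 10600 CPM per kb for rpl32, 8860 for psbM, 7870 for atpE, 5710 for rpl16 and 3310 for ndhC. On that scale rpoA stood at 818 CPM per kb and psbA at 206. The level was 28 CPM per kb for rbcL, 9.11 for psbD and 7.68 for psaA, a core protein of photosystem I. Length scaling suits reads spread along a transcript, so for 3′ reads these levels are a rough guide.

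Genes with long runs of A had more counts. In the window around the gene's end, 9 of 83 matched genes had a run of at least 10 A, with a median of 23033 counts. The 14 genes with runs of 5 or fewer had a median of 1427, the 37 genes with 6 or 7 had 1506 and the 23 genes with 8 or 9 had 2742. Across the 83 genes the rank correlation between the longest A run and the counts was 0.41 in this window and 0.64 over the whole gene plus 200 bases. For runs of T it was 0.02 and 0.13, and for coding length 0.27. All genes share the same libraries and an A-rich genome, and longer genes hold longer runs, so the coefficients are descriptions. Of the 7 genes with the most counts, 5 had a run of at least 10 A in the gene plus 200 bases, against 16 of all 83. Runs did not order every gene, since rpl32 had no run above 8 and atpE none above 9.

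**Figure D1:**
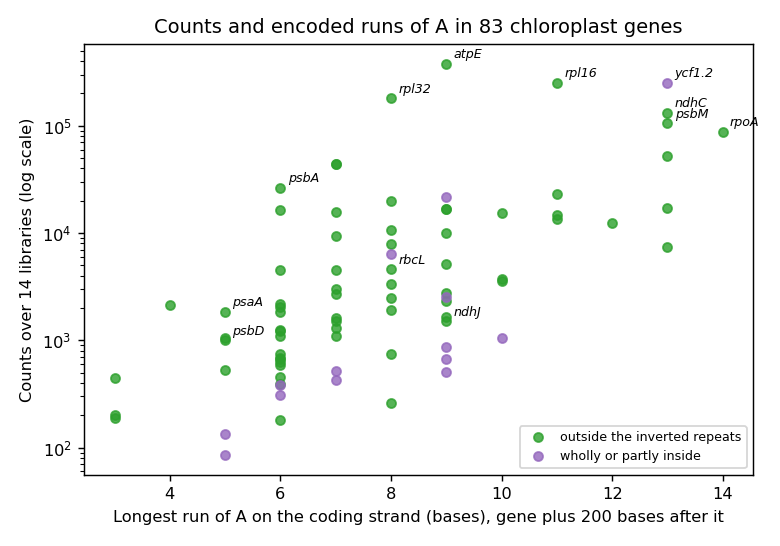
Counts over 14 libraries (log scale) against the longest run of A on the sense strand in the gene plus 200 bases after it (bases), 1 point for each of 83 chloroplast genes, coloured by position in the inverted repeats. The rank correlation was 0.64, with rpoA at 14 A and psbD and psaA at 5 A.

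Some members cannot be counted cleanly. The chloroplast genome holds a pair of inverted repeats of 26264 bases, and 10 of the 83 matched members lie wholly within them, with 85 to 2551 counts. Another 4 lie partly within them: ycf1.2 (252770 counts), rps19 (21556), ndhF (6327) and ycf1.1 (1062). The 5 members without a match were not placed. Copies of a stretch in the repeats are near identical, and the deposited counts need not show which copy a read came from. In addition, 8 members overlap another gene, only at their ends: atpE with atpB, rps3 with rpl22, psbC with psbD, and ndhF with ycf1.1 on the opposite strand. For example, atpE spans bases 52265 to 52663 and atpB 52660 to 54156, so very few bases are shared. atpB, the beta subunit of the ATP synthase, was highest (239 CPM in EtOH_1d replicate 1) and lowest (82 CPM in moc_3d replicate 1) in the same libraries as atpE. In 14 members, ycf1.2, psbA, rbcL, rpoC1 and rpoC2 among them, a stretch of at least 100 bases matched the nuclear genome at 95% identity or more. In 5 members such a stretch matched the mitochondrial genome. For ycf1.2 the longest match had 536 bases at 97.6% identity in each of these genomes. The genes rpoA, ndhJ, ndhK, psaI, cemA and rps14 had no such match and no overlap.

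Chloroplast genes took 1.72% ± 0.119 (SD, n = 3) of all counts in moc_1d, 1.97% ± 0.313 (n = 4) in EtOH_1d, 1.3% ± 0.209 (n = 3) in moc_3d and 1.71% ± 0.175 (n = 4) in EtOH_3d. The libraries stood at 1.829%, 1.742% and 1.594% in moc_1d and at 2.276%, 2.051%, 1.531% and 2.008% in EtOH_1d, so these groups overlapped. They stood at 1.081%, 1.328% and 1.497% in moc_3d and at 1.783%, 1.923%, 1.613% and 1.531% in EtOH_3d, where every ethanol library lay above every control. The share is a sum over the members and carries no test. In whole seedlings a lower share of green cells and less chloroplast RNA per cell cannot be told apart. Nor can either be told apart from a different capture of that RNA by the oligo-dT primer. The summed level of 6 shoot markers (such as RBCS1A and CAB1) averaged 55900, 56300, 58000 and 57900 CPM in moc_1d, EtOH_1d, moc_3d and EtOH_3d. The 8 root markers (such as CASP1) summed to 146, 150, 144 and 148 CPM, with library ranges of 127 to 166 in EtOH_1d and 127 to 181 in EtOH_3d. Of the 8, 7 had enough counts to be tested. Their log2 fold changes ranged from -0.48 to 0.45 at 1 d, -0.32 to 0.68 at 3 d and -1.24 to 0.92 between the controls. Between the controls 2 of the 7 had an unadjusted p under 0.05 (edgeR), as had 1720 of the 18419 genes tested. The sums do not show these differences. Neither list had a member past the threshold in any of the 5 comparisons, and their part in the chloroplast share was not tested.

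**Figure D2:**
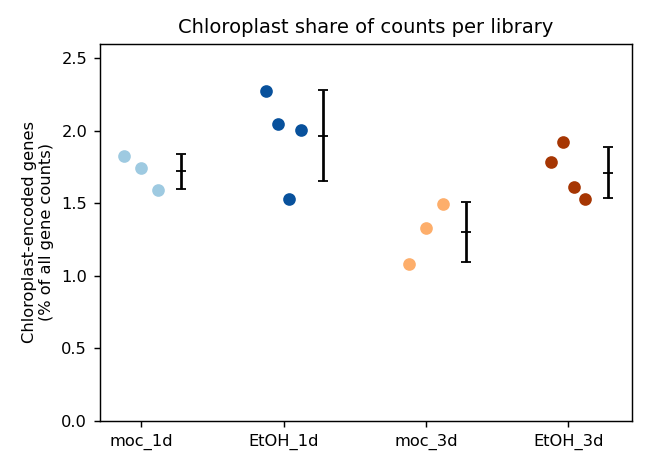
Share of all gene counts on chloroplast-encoded genes (percent) in each of 14 libraries by group, with points for libraries and bars for the mean and SD. The lowest library was moc_3d replicate 1 at 1.081%, and the 4 EtOH_3d libraries lie above the 3 moc_3d libraries.

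Above 4 CPM, chloroplast genes varied more between replicates than nuclear genes of similar level. The moderated biological coefficient of variation, the replicate spread beyond counting error, had a median of 0.19 in 86 chloroplast genes and 0.107 in 18315 nuclear genes. Above a log2 CPM of 8 it was 0.212 in 10 chloroplast genes and 0.0672 in 559 nuclear genes. Under 4 CPM the medians were close, at 0.219 in 12 chloroplast genes and 0.213 in 3002 nuclear genes. The gene atpE had 0.365 and psbA 0.35, whereas rpoA, at 0.0711, had the lowest value of all members. The next lowest named members were accD (0.0826, a subunit of acetyl-CoA carboxylase) and psbC (0.0836, the CP43 antenna protein of photosystem II).

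**Figure D3:**
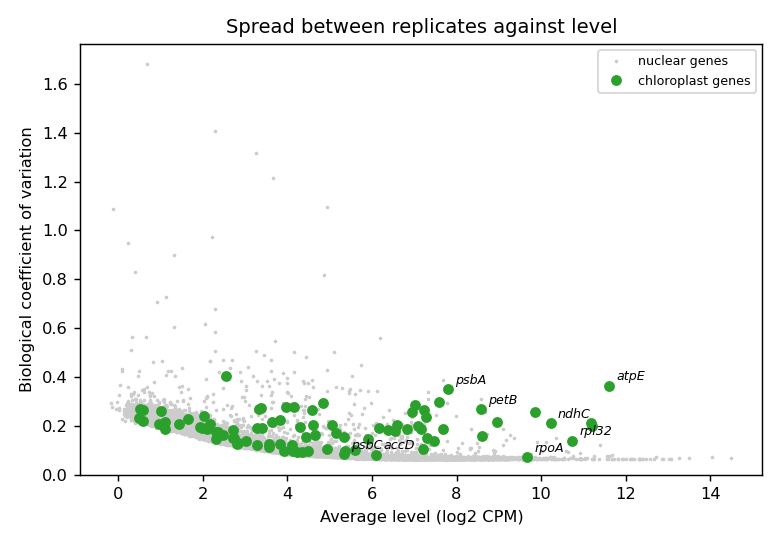
Moderated biological coefficient of variation against average level (log2 CPM) for tested nuclear genes (grey) and 86 chloroplast genes (green). At high levels rpoA (0.0711) lies with the nuclear genes, and atpE (0.365) and psbA (0.35) lie far above them.

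After 1 d of ethanol, no chloroplast gene passed the threshold, and no gene of the whole table did (0% of 18419, edgeR, smallest adjusted p = 0.0908). Fold changes of the members nonetheless lay mostly above 0, in 76 of 86 genes against 51% of all genes tested, with a median log2 fold change of 0.28 against 0. With the libraries scaled to the chloroplast total instead, which shifts the median of all genes by -0.18, 58 of 86 were positive. That total is the sum of the members' own counts, so this scaling removes by construction a shift that they share. It rests mostly on a few genes, with 20% of the counts on atpE. It also widened the SE of rpoA at 3 d from 0.06 to 0.17. A call lost under it therefore does not show that the gene was unchanged. Without that scaling, 24 members had an unadjusted p under 0.05, all higher in EtOH_1d. Of all genes tested, 2.55% were past that level in that direction. DESeq2 and limma-voom each called 1 member, psbC, among 8 and 2 of all genes. Without the low-count filter, and with these groups fitted alone, 8 members passed each time, among 28 of 26074 and 16 of 18524 genes.

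For psbC the levels were 37.2, 43.4 and 30.2 CPM in moc_1d and 54.5, 47.9, 47.2 and 58.2 CPM in EtOH_1d. Every ethanol library lay above every control, and the log2 fold change was 0.49 ± 0.10 (SE; adjusted p = 0.0908, edgeR). It was 0.53 ± 0.13 for cemA, an inner envelope protein linked to proton exchange, and 0.56 ± 0.13 for psaI, a small photosystem I subunit (adjusted p = 0.174 and 0.182, edgeR). In all, 21 members had every EtOH_1d library above every moc_1d library, where 3.26% of all genes tested did, and 0 members had the reverse, where 2.87% did.

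By class, the median log2 fold change at 1 d was 0.25 in photosystem II (15 of 15 genes positive), 0.4 in photosystem I (7 of 7), 0.3 in cytochrome b6f (5 of 6) and 0.32 in the ATP synthase (6 of 6). It was 0.27 in NDH (10 of 12), 0.18 in the small ribosomal subunit (12 of 15) and 0.37 in the large ribosomal subunit (8 of 10). In the RNA polymerase it was 0.23, with 3 of 4 positive. The exception was rpoA, at -0.10 ± 0.06 (SE; adjusted p = 1, edgeR), while rpoB, rpoC1 and rpoC2 had 0.21, 0.25 and 0.34.

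After 3 d of ethanol, rpoA and ndhJ were higher than in the controls, 2 of 86 members (2.33%) where 0.44% of all genes tested were past the threshold upwards. Fold changes were positive in 78 of 86 members against 49.8% of all genes, with a median of 0.39 against 0. That median was 0.29 without EtOH_3d replicate 2 (77 positive) and 0.33 without moc_3d replicate 1 (69 positive). Leaving out moc_3d replicate 4 gave 0.53 (83 positive). After chloroplast scaling, which shifts the median of all genes by -0.42, 44 of 86 members were positive. At an unadjusted p under 0.05, 30 members were higher and 1 was lower, against 4.75% and 4.07% of all genes tested.

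The gene rpoA had 609, 730 and 696 CPM in moc_3d replicates 1, 2 and 4 and 929, 899, 925 and 761 CPM in EtOH_3d replicates 1 to 4. The groups did not overlap, and the means were 678 ± 62 (SD, n = 3) and 878 ± 79.7 (n = 4). It rose by a log2 fold change of 0.37 ± 0.06 (SE; 95% interval 0.25 to 0.50; adjusted p = 0.000356, edgeR), or 1.29-fold, and had -0.05 (adjusted p = 0.811) when scaled to the chloroplast total. Without each of the 14 libraries in turn the value was 0.30 to 0.44 and stayed past the threshold each time. Larger fold changes than that of rpoA were seen in 46 of the 86 members, and 85 members had a larger SE. For rpoA the EtOH_3d mean lay close to that of the moc_1d controls (862 CPM), and EtOH_1d averaged 803 CPM. The lowest group mean was that of moc_3d. The summed chloroplast level was also lowest there, at 13000 CPM. It was 17200 CPM with ethanol for 3 d, 17100 CPM for the moc_1d controls and 19800 CPM with ethanol for 1 d. No test compared EtOH_3d with moc_1d.

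The gene ndhJ, a subunit of the NDH complex that cycles electrons around photosystem I, had 11.2, 7.2 and 11.6 CPM in moc_3d. In EtOH_3d it had 11, 22.8, 19.5 and 17.5 CPM, so 3 ethanol libraries lay above the controls and replicate 1 among them. It rose by 0.81 ± 0.19 (SE; 95% interval 0.45 to 1.18; adjusted p = 0.021, edgeR). With 1 library left out, 5 of 14 fits lost the call (those lacking replicate 1 or 2 of moc_3d, or replicate 2, 3 or 4 of EtOH_3d), with adjusted p up to 0.222. The call also ended with limma-voom (adjusted p = 0.0637), with these groups fitted alone (0.0801) and after chloroplast scaling, where the value was 0.41 (adjusted p = 0.146). The adjacent gene ndhK, of the same complex, had 0.21 ± 0.16 (adjusted p = 0.765, edgeR).

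**Figure D4:**
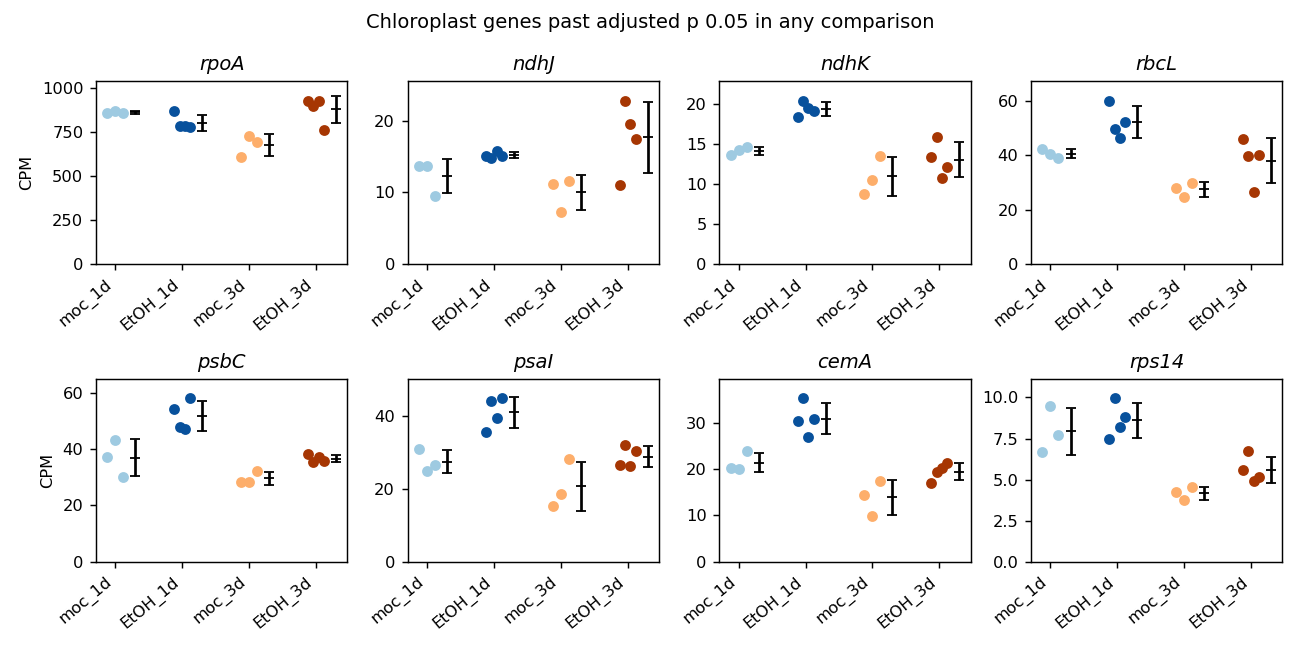
Levels (CPM, axes from 0) of the 8 chloroplast genes past the threshold in any comparison, with 1 point per library in each group and bars for the mean and SD. For rpoA the 3 moc_3d libraries, at 609 to 730 CPM, are below the 4 EtOH_3d libraries, at 761 to 929 CPM. Scaled to the chloroplast total, the rpoA difference at 3 d was -0.05 on the log2 scale.

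The other polymerase subunits did not pass at 3 d with edgeR, although every EtOH_3d library exceeded every moc_3d library in each. Their log2 fold changes were 0.39 for rpoB, 0.49 for rpoC1 and 0.51 for rpoC2 (adjusted p = 0.65, 0.0633 and 0.385, edgeR). rpoC1 had 37, 35 and 40.5 CPM in moc_3d and 48.4, 68.2, 52.1 and 44.8 CPM in EtOH_3d. It passed with DESeq2 (adjusted p = 0.017), without the low-count filter (0.000367), with these groups fitted alone (0.0265) and with the duplicate library kept as moc_3d replicate 3 (0.0357), but not with limma-voom (0.105). In fits with 1 library left out it passed when that library was any of the 4 of EtOH_1d or EtOH_3d replicate 4, and its adjusted p reached 0.269 without moc_3d replicate 2. After chloroplast scaling its value was 0.08 (adjusted p = 0.739). In total, 17 members were separated in this way, against 4.16% of all genes tested, and 0 in the reverse, against 3.58%. Across the other classes the median log2 fold change was 0.30 in photosystem II (13 of 15 positive), 0.24 in photosystem I (6 of 7), 0.47 in cytochrome b6f (5 of 6) and 0.46 in the ATP synthase (6 of 6). It was 0.21 in NDH (11 of 12), 0.52 in the small ribosomal subunit (13 of 15) and 0.46 in the large one (9 of 10). The Rubisco gene rbcL had 0.46 ± 0.13 (adjusted p = 0.129, edgeR). The reaction-centre gene psbA had 0.01 (adjusted p = 0.998, edgeR), with 81.2, 75 and 202 CPM in moc_3d and 80, 102, 94.5 and 207 CPM in EtOH_3d.

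Both ethanol comparisons use separate controls. Of the 86 members, 76 lay above 0 at 1 d, 78 at 3 d and 72 in both. The share of all genes above 0 in both was not computed, so the joint count adds no support to the single counts. Members of a library share that library's chloroplast share, so they are not independent counts. The 2 responses were compared directly. The response of rpoA at 3 d exceeded that at 1 d by 0.47 ± 0.09 (SE; 95% interval 0.30 to 0.65; adjusted p = 0.0129, edgeR). It was 1 of 86 members (1.16%) past the threshold upwards, where 0.0271% of all genes tested were. At 1 d rpoA had 859, 869 and 857 CPM in moc_1d and 870, 783, 782 and 776 CPM in EtOH_1d. Leaving out replicate 4 of moc_1d, replicate 1 of moc_3d or replicate 3 of EtOH_3d ended the call (up to an adjusted p of 0.155), and the value was 0.24 (adjusted p = 0.828) when scaled to the chloroplast total. With the duplicate library kept as moc_1d replicate 1 the difference was 0.40 (adjusted p = 0.505). The median of all 86 members was 0.06, with 52 positive. It was 0.25 without moc_3d replicate 4 (72 positive), and -0.01 without moc_3d replicate 1 (41 positive) or EtOH_3d replicate 2 (40 positive), and leaving out EtOH_1d replicate 1 gave 0.01. The difference of ndhJ was 0.53 ± 0.25 (SE; adjusted p = 0.883, edgeR).

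**Figure D5:**
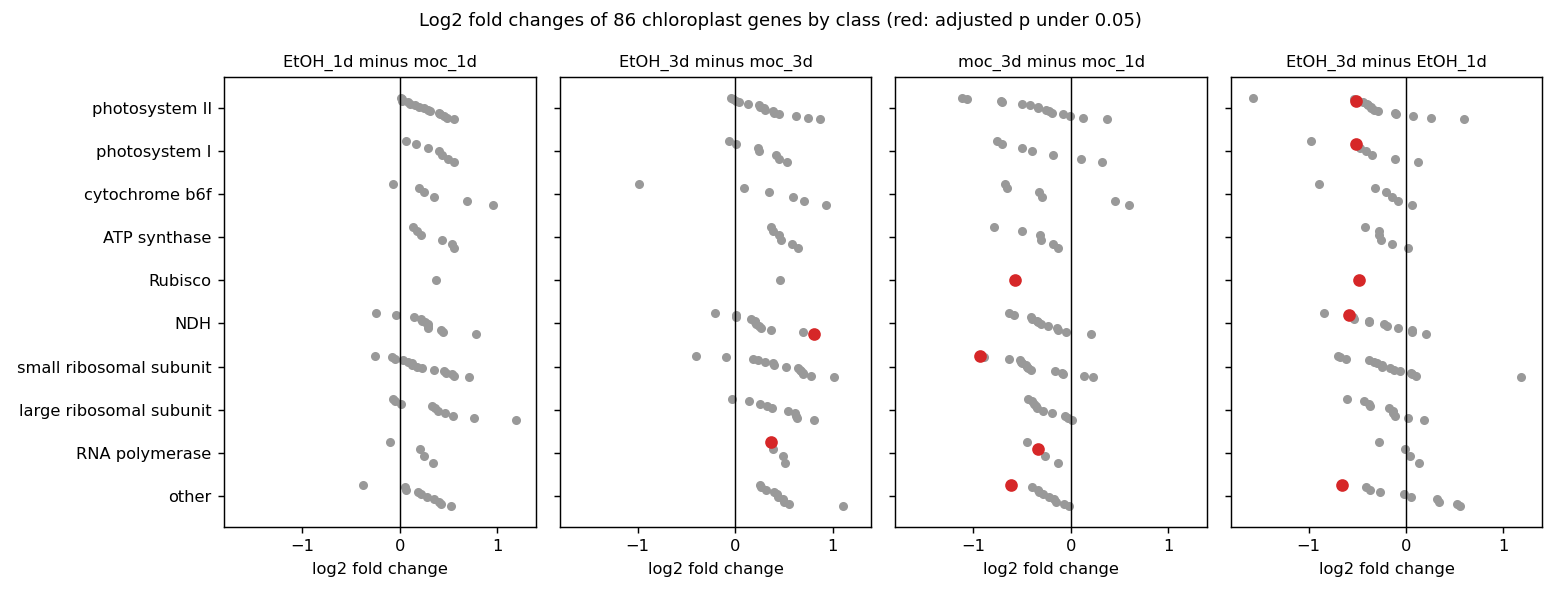
Log2 fold changes of the 86 tested chloroplast genes by class in 4 comparisons, with 1 point per gene and red for adjusted p under 0.05. Most points are above 0 in both ethanol comparisons (76 and 78 of 86) and below 0 between durations (76 and 64 of 86). Scaled to the chloroplast total, 58 and 44 were above 0 with ethanol and 33 and 49 below 0 between durations.

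The controls of the 2 durations differ in the age at which they were started as well as in duration, and these cannot be told apart. By the labels, start age and duration together bring all groups to the same age at the end of treatment. They are the same moc_3d and moc_1d libraries as in the ethanol comparisons. In moc_3d, 4 members were lower than in moc_1d (4.65%), where 0.315% of all genes tested were. Fold changes were negative in 76 of 86 members against 50.4% of all genes, with a median of -0.32. That median was -0.52 without moc_3d replicate 4 and -0.23 without moc_3d replicate 1. With chloroplast scaling, which shifts the median of all genes by 0.42, 33 members were negative. In 17 members every moc_3d library lay below every moc_1d library, against 7.66% of all genes tested, and in 1 member, psbD, every one lay above, against 8.03%.

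For rpoA the log2 difference was -0.34 ± 0.07 (SE; adjusted p = 0.00179, edgeR), and 0.07 (adjusted p = 0.762) when scaled to the chloroplast total. The Rubisco gene rbcL had 42.4, 40.4 and 38.9 CPM in moc_1d and 27.8, 24.6 and 29.9 CPM in moc_3d, with no overlap (-0.57 ± 0.13; adjusted p = 0.0263, edgeR). For cemA the levels were 20.2, 20.1 and 23.8 CPM against 14.3, 9.82 and 17.5 CPM (-0.61 ± 0.15; adjusted p = 0.0272, edgeR). The small-subunit ribosomal gene rps14 had 6.66, 9.48 and 7.71 CPM against 4.21, 3.74 and 4.53 CPM (-0.93 ± 0.23; adjusted p = 0.0286, edgeR). In all 3 genes the moc_3d libraries lay below those of moc_1d. Without moc_3d replicate 1, the library with the lowest chloroplast share, 0 members passed, and the adjusted p of rpoA was 0.0708. The calls of rbcL, cemA and rps14 were each lost in 5 of 14 fits with 1 library left out. Those fits lacked moc_3d replicate 1 or 2, moc_1d replicate 3 or 4, moc_1d replicate 2 for rbcL and cemA, or moc_3d replicate 4 for rps14. Adjusted p rose to 0.339. Chloroplast scaling ended these 3 calls too, with -0.15 for rbcL, -0.22 for cemA and -0.53 for rps14 (adjusted p = 0.548, 0.414 and 0.156). With the duplicate library kept as moc_1d replicate 1, 0 members passed, and rpoA had -0.27 (adjusted p = 0.27). Kept as moc_3d replicate 3, it left rps14 at an adjusted p of 0.115. The calls of rps14 and cemA ended with limma-voom (0.0632) and with these groups fitted alone (0.0575), respectively.

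Between the ethanol groups, 5 members were lower at 3 d than at 1 d (5.81%), where 0.369% of all genes tested were. Fold changes were negative in 64 of 86 members against 50.2% of all genes, and in 49 when scaled to the chloroplast total, which shifts the median of all genes by 0.18. In 14 members every EtOH_3d library lay below every EtOH_1d library, against 2.94% of all genes tested, and in 1 member, rps12B, every one lay above, against 2.96%. The gene cemA had 30.5, 35.3, 27 and 30.8 CPM in EtOH_1d and 16.9, 19.3, 20.2 and 21.3 CPM in EtOH_3d. Every value at 3 d was below every value at 1 d (-0.66 ± 0.12; adjusted p = 0.00107, edgeR). For psbC the EtOH_3d levels were 38.3, 35.5, 37.2 and 35.8 CPM, all below the EtOH_1d levels given above (-0.51 ± 0.10; adjusted p = 0.00107, edgeR). Both calls held without each library in turn.

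The gene ndhK had 18.4, 20.4, 19.5 and 19.1 CPM in EtOH_1d and 13.4, 15.8, 10.7 and 12.1 CPM in EtOH_3d (-0.59 ± 0.14; adjusted p = 0.0138, edgeR). In rbcL the levels were 60.1, 49.7, 46.5 and 52.4 CPM against 45.8, 39.8, 26.5 and 39.9 CPM (-0.48 ± 0.11; adjusted p = 0.0213, edgeR). In psaI they were 35.6, 44, 39.3 and 44.8 CPM against 26.6, 32, 26.2 and 30.3 CPM (-0.51 ± 0.13; adjusted p = 0.0342, edgeR). None of the 3 overlapped between groups. The call of ndhK was lost without EtOH_3d replicate 3 or 4 (adjusted p up to 0.111). That of rbcL was lost in 5 fits (without EtOH_1d replicate 1 or 4, or EtOH_3d replicate 2, 3 or 4; up to 0.123). That of psaI was lost in 7 (without moc_1d replicate 4, EtOH_1d replicate 2, 3 or 4, or EtOH_3d replicate 1, 3 or 4; up to 0.155). With the duplicate library kept as moc_1d replicate 1, rbcL and psaI did not pass (adjusted p = 0.0885 and 0.0807), and rbcL did not with these groups fitted alone (0.0866). Scaled to the chloroplast total, none of the 5 passed, with values from -0.46 to -0.28. The widest difference among the named genes was that of psbA, from 361 ± 51.9 CPM (SD, n = 4) to 121 ± 58.3 (n = 4), without overlap (-1.57 ± 0.36; adjusted p = 0.0887, edgeR).

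Median log2 fold changes of nuclear genes whose products work with these proteins lay near 0. Of 22 nuclear photosystem subunits, 21 were positive at 1 d and 21 at 3 d, against 51% and 49.8% of all genes tested. Their medians were 0.03 and 0.07, with no call. The 12 nuclear NDH subunits had medians of 0.03 and -0.03, and 8 nuclear subunits of b6f, ATP synthase and Rubisco had -0.04 and -0.03. Among nuclear genes of organelle transcription and RNA decay, 6 sigma factors had medians of 0.02 and -0.06, and 12 polymerase-associated proteins -0.05 and -0.03. The 6 plastid RNA decay genes had -0.04 and -0.03. The 3 phage-type organelle polymerases (RPOTp, RPOTmp and RPOTm), a list not limited to the chloroplast, had 0.02 and -0.05. Single genes of these lists ranged from -0.34 (a phage-type polymerase) to 0.36 (a sigma factor) at 1 d. At 3 d they ranged from -0.28 (an NDH subunit) to 0.16 (a photosystem subunit). No gene of these lists passed in either ethanol comparison, in the difference of responses or between the controls. Between the ethanol groups SIG5 (AT5G24120), a stress- and light-responsive sigma factor, was lower at 3 d (-0.62 ± 0.13; adjusted p = 0.00517, edgeR), from 19.5 to 12.7 CPM. Of 18 mitochondrion-encoded genes tested, none passed in the ethanol comparisons, where medians were 0.15 and 0.12. Between the controls their median was -0.28, with 12 of 18 negative and 1 lower past the threshold (adjusted p = 0.0486, edgeR). Between the ethanol groups it was -0.17, with 13 of 18 negative and 1 lower (adjusted p = 0.0276, edgeR), so a median below 0 between durations was also seen in mitochondrial genes.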

How the data were processed

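Whole seedlings were profiled by Lasy-Seq from total RNA, per the labels' protocols. Per the submitters' processing notes, the tools were bcl2fastq, Trimmomatic, HISAT2 and featureCounts, with DESeq2, and the build was TAIR10. The sources used here do not give the strand setting. The deposited table holds raw read counts per gene for 27416 genes. A second deposited table of normalized values was not used.

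The quasi-likelihood test of edgeR 4.0.16 (R 4.3.3; robust, TMM scaling, filterByExpr by group) was run on 14 libraries, with 4 group means and no block. All tests were two-sided, with Benjamini-Hochberg adjustment over the 18419 genes tested and a threshold of 0.05. The test statistic gave SE and 95% intervals. CPM use the TMM-scaled total. Alternatives were other scalings, no filter, DESeq2 1.42.0, limma-voom 3.58.1, the groups compared alone, the duplicate library kept, a replicate block and each library left out.

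The tables give locus codes only. Names follow the standard nomenclature of these loci. Reference text named 6 of the codes. For ATCG00430, named ndhK here, that text reads photosystem II reaction center protein G, and for the others it matched. Sequences come from RefSeq TAIR10.1, where 83 of 88 members matched by symbol. Stretches shared with other genomes were searched with BLAST 2.17.0.

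Named were the pair of members with the highest CPM per kb in each class, every member past the threshold, and 19 fixed genes. Members, classes and lists were chosen with earlier results of these data known. Where another gene is named, it was picked after its values were seen.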

Additional observations from a re-analysis of the deposited data

Results flagged for a closer look

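Groups of 4 libraries were examined for each named gene and for the chloroplast share. In 5 of 74 such groups, 1 value stood far from the other 3, where about 3.7 would be flagged by chance at 1 in 20. In EtOH_1d, rpoA in replicate 1 had 870 CPM, and the next highest library had 783 CPM. In EtOH_3d, replicate 2, the library with the fewest counts, was highest for 4 genes. It had 22.8 CPM for psbB (next 16.8), 57.2 CPM for rpoB (next 35.3), 202 CPM for rpoC2 (next 149) and 97.8 CPM for ycf3 (next 62.6). Without EtOH_3d replicate 2 the median log2 fold change of members at 3 d was 0.29, against 0.39 with it. For rpoC1 the value was 0.37, against 0.49 with it. Values of the 4 genes without that library are not given here. The response of rpoA differed between durations by 0.47 on the log2 scale (adjusted p = 0.0129, edgeR), as given above.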

How the results depend on the processing

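The numbers of members called were 0 at 1 d, 2 at 3 d, 1 for the difference of responses, 4 between controls and 5 between ethanol groups. Over all genes tested, 0, 102, 8, 155 and 185 were called. The numbers of members were the same with DESeq2 size factors and with TMM from nuclear genes. Scaled to the chloroplast total, the last 4 counts were 2 (petG and ycf1.1), 0, 1 (psbD, higher) and 3 (psbA, petB and ndhA), none of them called before in the same comparison. Over all genes this scaling called 1, 3273, 5, 1858 and 101. The values of rpoA turned to -0.05 at 3 d and 0.07 between controls, with the median of all genes moved as given above. Without a low-count filter 8, 16, 1, 7 and 11 members were called, among 28, 196, 47, 283 and 313 of 26074 genes. DESeq2 gave 1, 3, 1, 7 and 8, among 8, 121, 13, 150 and 205 of 18419 genes. With limma-voom they were 1, 1, 1, 4 and 6, among 2, 84, 5, 132 and 175. The groups compared alone gave 8, 5, 6 and 10, among 16, 97, 189 and 211, the difference of responses having no such fit. With 16 columns as labelled, the counts were 1, 2, 0, 0 and 3, among 2, 66, 0, 5 and 131. The duplicate library kept as moc_1d replicate 1 gave the same, among 2, 74, 4, 19 and 134. Kept as moc_3d replicate 3, it gave 0, 4, 1, 4 and 5, among 0, 106, 11, 176 and 195. Deviations of same-numbered libraries from their group means correlated at -0.08 to 0.06. No pairing by number was seen, but this cannot exclude shared plates or batches. A replicate block gave 4, 9, 1, 4 and 7, among 12, 109, 10, 146 and 250. With 1 library left out, the counts ranged over 0 to 1, 1 to 7, 0 to 1, 0 to 7 and 2 to 10. Those over all genes ranged over 0 to 5, 43 to 124, 1 to 23, 67 to 158 and 128 to 234. The cause was not tested. Depth limits genes below 0.812 CPM in the smallest library.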

Other observations

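The library carried under both moc_1d replicate 1 and moc_3d replicate 3 was in no comparison. It had 6209714 counts, of which 1.413% fell on chloroplast genes. Scaled to its own total, rpoA had 691 CPM, rbcL 30.8, cemA 13.5, rps14 7.09, ndhJ 9.02 and psbA 132.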
